A study of Mus musculus with 16 samples.

Results

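The genes described here are 13 that encode enzymes of the tricarboxylic acid (TCA) cycle and its malate-aspartate shuttle and 16 that encode enzymes and regulators of branched-chain amino acid breakdown. They were taken by gene symbol and not by a cut on a measured value, but were chosen with earlier results of these data known. They make up 29 of the 55487 genes in each count table. All 29 had enough reads to be tested. The tables come from RNA sequencing of left ventricles, cut at their mid section, from 16 untreated C57Bl/6J mice that were 24 months old. More than 3 pregnancies were on record for 8 of them (multiparous), the other 8 were virgin, and the comparison asks how parity itself relates to transcripts of the old heart. The names of the multiparous libraries carry 2 codes, P for replicates 1, 2, 5 and 7 and MP for replicates 3, 4, 6 and 8, while all virgin libraries carry the code AA. The labels do not say what the codes mean, so parity and library code cannot be told apart here.

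The TCA cycle burns acetyl-CoA in the mitochondrial matrix and passes its electrons to the respiratory chain, and in the heart most of that acetyl-CoA comes from fatty acids. Leucine, isoleucine and valine are first stripped of their amino group, then committed to breakdown by the branched-chain ketoacid dehydrogenase complex, which a kinase switches off and a phosphatase switches on. Each then follows its own route to acetyl-CoA or succinyl-CoA, so the 2 pathways join inside the mitochondrion.

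All 13 TCA genes had a lower mean level in multiparous than in virgin hearts, and so did 15 of the 16 branched-chain genes. None of the 29 passed the test at an adjusted p under 0.05 (edgeR quasi-likelihood test, adjusted over 17813 genes). Over all genes tested, 0.0112% passed it, which is 2 genes. The median log2 fold change, multiparous minus virgin, was -0.062 over the TCA genes and -0.058 over the branched-chain genes, against -0.0030 over all genes tested. A lower mean was found in 51.4% of all genes tested, and in 64.6% of the 1467 genes with a mean of at least 100 CPM (gene reads scaled to library size), whose median was -0.024. The differences were small: the largest was -8.92% in the TCA list and -7.94% in the branched-chain list.

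Without the TMM factors that correct library totals for composition, the split was less one-sided. Then 9 of 13 TCA genes and 11 of 16 branched-chain genes were lower, while 36.4% of all genes were lower and their median was 0.030. The medians were -0.027 and -0.022 on that scale, which is -0.057 and -0.052 relative to the median of all genes.

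**Figure D1:**
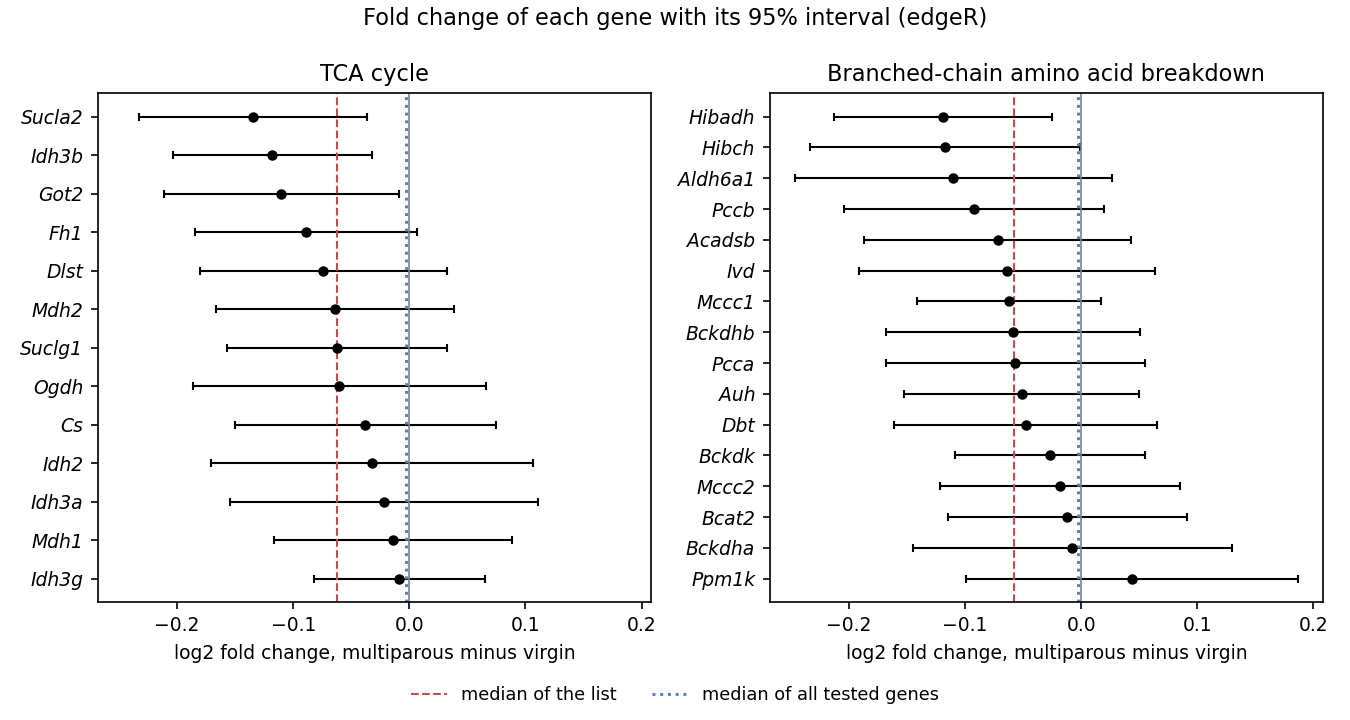
Points give the log2 fold change of each gene (multiparous minus virgin) and bars its 95% interval from the edgeR fit over 8 libraries per group, with the 13 TCA genes on the left and the 16 branched-chain genes on the right. The dashed line is the median of the list and the dotted line that of all tested genes; 10 of 13 and 14 of 16 intervals include 0, and Ppm1k alone lies above 0.

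At the entry of the cycle, citrate synthase (Cs) joins acetyl-CoA to oxaloacetate. Its level ran from 1176 to 1383 CPM in multiparous hearts (median 1303) and from 1110 to 1474 CPM in virgin hearts (median 1329), so the virgin range enclosed the multiparous one. The log2 fold change was -0.038 (SE 0.054, edgeR adjusted p = 0.911).

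The next step, the oxidation of isocitrate, is made by the NAD-dependent enzyme of 3 subunits, Idh3a, Idh3b and Idh3g, and by the NADP-dependent Idh2. Idh3b had the smallest p of the 29 genes. It ran from 416.3 to 488 CPM in multiparous hearts (median 452) and from 462 to 524 CPM in virgin hearts (median 494). All 8 multiparous libraries lay below the virgin median and 6 of them below the lowest virgin library, with an overlap left by multiparous 2 and 3. The means were 455 ± 23.4 against 493 ± 25.0 CPM (SD, n = 8 each), and the log2 fold change was -0.12 (SE 0.041, 95% interval -0.20 to -0.032, edgeR adjusted p = 0.391). In the GRCm38 build its gene (ENSMUSG00000027406.13 in the count tables, another version of the same identifier in the annotation used) spans 130279309 to 130284547 on the minus strand of chromosome 2, by that other version.

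The other isocitrate dehydrogenase genes differed less. Idh3a, the catalytic subunit, had means of 539 ± 48.8 and 547 ± 50.1 CPM (SD, n = 8 each). Idh3g, a regulatory subunit, had 334 ± 11.8 and 336 ± 15.1 CPM, the smallest difference of the TCA list (log2 fold change -0.0087). Idh2 had 1531 ± 155 and 1566 ± 124 CPM, and its multiparous median (1591 CPM) lay above the virgin one (1539 CPM), against the order of the means. Each of these differences was under 1 SD.

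Oxoglutarate is oxidised to succinyl-CoA by a complex whose first enzyme is Ogdh and whose lipoate-carrying core is Dlst. Ogdh had means of 3233 ± 235 and 3371 ± 272 CPM and Dlst of 621 ± 35.0 and 654 ± 50.4 CPM (SD, n = 8 each). For either gene, 7 of 8 multiparous libraries lay below the virgin median, but none lay below the lowest virgin library.

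Succinyl-CoA synthetase turns succinyl-CoA into succinate and recovers a nucleoside triphosphate. Sucla2, its ATP-forming beta subunit, had the largest difference of the TCA list. It ran from 343 to 409.8 CPM in multiparous hearts (median 373) and from 357 to 436 CPM in virgin hearts (median 413). All 8 multiparous libraries lay below the virgin median and 3 lay below the lowest virgin library, virgin 1. The means were 372 ± 23.1 against 408 ± 25.8 CPM (SD, n = 8 each), and the log2 fold change was -0.13 (SE 0.047, 95% interval -0.23 to -0.036, edgeR adjusted p = 0.394). Its gene (ENSMUSG00000022110.13) spans 73525319 to 73596142 on the plus strand of chromosome 14. Suclg1, the alpha subunit shared by both forms of the enzyme, had 223 ± 12.6 and 233 ± 15.0 CPM.

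Fumarase (Fh1) hydrates fumarate to malate in the last part of the cycle. It ran from 257 to 297 CPM in multiparous hearts (median 273) and from 261 to 323 CPM in virgin hearts (median 298). All 8 multiparous libraries lay below the virgin median, and 1 lay below the lowest virgin library. The log2 fold change was -0.089 (SE 0.046, 95% interval -0.18 to 0.0069, edgeR adjusted p = 0.654), with the gene (ENSMUSG00000026526.14) at 175600374 to 175625635 on the minus strand of chromosome 1.

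Mitochondrial and cytosolic malate dehydrogenase (Mdh2, Mdh1) and the mitochondrial aspartate aminotransferase (Got2) form the shuttle that carries reducing equivalents into the matrix. Got2 ran from 822 to 953 CPM in multiparous hearts (median 883) and from 838 to 1041 CPM in virgin hearts (median 963). Every multiparous library lay below the virgin median, and 1 lay below the lowest virgin one. The means were 889 ± 39.8 against 959 ± 71.6 CPM (SD, n = 8 each), with a log2 fold change of -0.11 (SE 0.048, 95% interval -0.21 to -0.0091, edgeR adjusted p = 0.567). The Got2 gene (ENSMUSG00000031672.8) spans 95864134 to 95888547 on the minus strand of chromosome 8. A processed pseudogene, Got2-ps1, had a mean of 815 counts against 52629 for Got2, and reads could be split between them. Mdh2 had means of 762 ± 48.0 and 797 ± 51.9 CPM, and Mdh1 of 1088 ± 47.4 and 1099 ± 82.8 CPM.

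An unadjusted p under 0.05 was reached by 3 of the 13 TCA genes (Idh3b, Sucla2 and Got2), all lower, where 4.09% of all genes were lower at that level and 4.04% higher. Of the 1467 genes with a mean of at least 100 CPM, a class that holds all 13, 102 were lower at that level and 41 higher. Adjusted p-values of the TCA list ran from 0.391 to 0.979 (edgeR). In no TCA or branched-chain gene were the groups free of overlap, as they were in 0.0337% of all genes tested, 6 in number. In 11 of the 13 TCA genes the difference of means was smaller than the larger of the group SDs, Idh3b and Sucla2 being the exceptions.

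**Figure D2:**
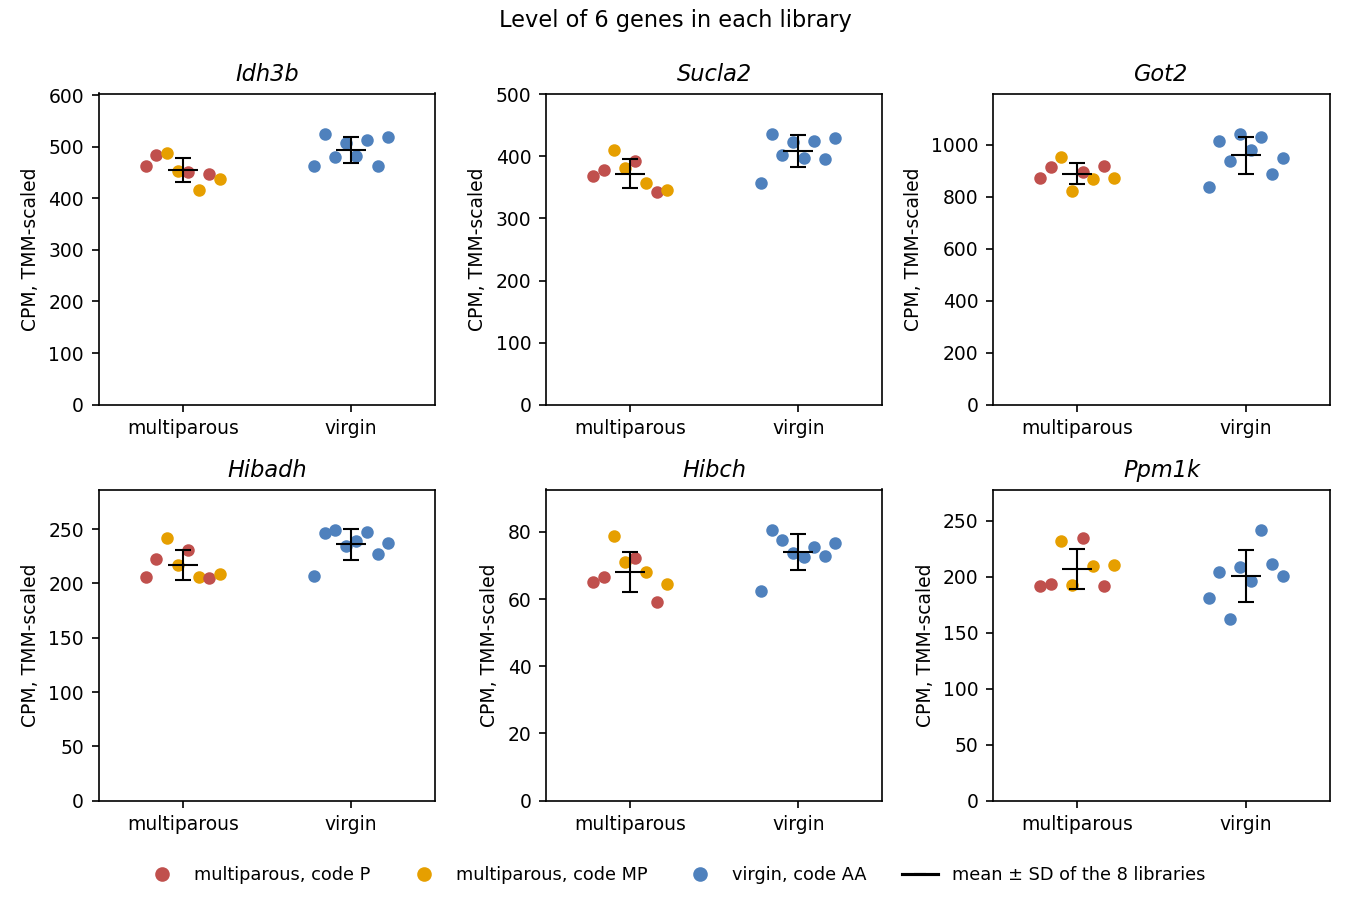
Levels in CPM (vertical axis, from 0, scaled by TMM) of 6 genes in each library, ordered from replicate 1 to 8 within a group and coloured by library code; bars are mean ± SD of 8 libraries. The groups overlap in each gene, virgin 1 is the leftmost virgin point, and Ppm1k has its lowest library (162 CPM) among the virgin hearts.

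The branched-chain pathway opens with Bcat2, the mitochondrial transaminase that removes the amino group. Its means were 72.8 ± 4.31 CPM (multiparous) and 73.4 ± 5.79 CPM (virgin, SD, n = 8 each), and 4 of 8 multiparous libraries lay on either side of the virgin median. The dehydrogenase complex that follows had Bckdha and Bckdhb (its first enzyme) and Dbt (its lipoate-carrying core) among the genes counted. Bckdha had 168 ± 14.7 and 169 ± 17.2 CPM, the smallest difference of the pathway (log2 fold change -0.0075). Bckdhb had 38.1 ± 2.81 and 39.7 ± 2.96 CPM, and Dbt 71.4 ± 5.18 and 73.8 ± 6.09 CPM. The third enzyme of the complex, Dld, is shared with the TCA cycle and is given below.

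The switch of the complex did not pass the test either. Bckdk, the kinase that inactivates it, had 78.3 ± 3.65 and 79.8 ± 4.50 CPM (SD, n = 8 each). Ppm1k, the phosphatase that reactivates it, was the only one of the 29 genes with a higher mean in multiparous hearts. It ran from 192 to 234 CPM in multiparous hearts (median 201) and from 162 to 242 CPM in virgin hearts (median 202). The means were 207 ± 17.9 and 201 ± 23.1 CPM, and the log2 fold change was 0.044 (SE 0.068, 95% interval -0.099 to 0.19, edgeR adjusted p = 0.922). The medians were in the opposite order, and the virgin range enclosed the multiparous one. Ppm1k (ENSMUSG00000037826.5) lies at 57506502 to 57535468 on the minus strand of chromosome 6.

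On the leucine route, Ivd (isovaleryl-CoA dehydrogenase), Mccc1 and Mccc2 (the subunits of methylcrotonyl-CoA carboxylase) and Auh (methylglutaconyl-CoA hydratase) were all lower by the mean, with log2 fold changes of -0.064, -0.062, -0.018 and -0.051. Ivd had 380 ± 32.9 CPM (multiparous) and 397 ± 34.4 CPM (virgin, SD, n = 8 each). Mccc1 had 106.4 ± 4.72 and 111 ± 6.22 CPM, Mccc2 50.7 ± 3.56 and 51.3 ± 3.67 CPM, and Auh 71.9 ± 5.23 and 74.5 ± 4.90 CPM. Their adjusted p-values were 0.844, 0.728, 0.964 and 0.841 (edgeR).

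Valine breakdown held the 3 largest differences of the pathway, in enzymes that act one after the other. Hibch releases free hydroxyisobutyrate from its CoA ester. It ran from 59.1 to 78.9 CPM in multiparous hearts (median 67.4) and from 62.3 to 80.5 CPM in virgin hearts (median 74.7). Of the multiparous libraries, 7 lay below the virgin median and 1 below the lowest virgin library. The log2 fold change was -0.12 (SE 0.056, 95% interval -0.23 to -0.00072, edgeR adjusted p = 0.614).

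Hibadh then oxidises hydroxyisobutyrate to methylmalonate semialdehyde. It ran from 205 to 242 CPM in multiparous hearts (median 213) and from 207 to 249.2 CPM in virgin hearts (median 238). Of the multiparous libraries, 7 lay below the virgin median and 3 below the lowest virgin library, which was virgin 1. The means were 217 ± 13.6 against 236 ± 13.9 CPM (SD, n = 8 each), with a log2 fold change of -0.12 (SE 0.045, 95% interval -0.21 to -0.025, edgeR adjusted p = 0.460). This was the only branched-chain gene whose difference of means exceeded the larger group SD.

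Aldh6a1 converts the semialdehyde to propionyl-CoA. It ran from 200.01 to 282 CPM in multiparous hearts (median 238) and from 216 to 294 CPM in virgin hearts (median 255). The log2 fold change was -0.11 (SE 0.065, 95% interval -0.25 to 0.026, edgeR adjusted p = 0.724), and the ranges overlapped over most of their length.

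Propionyl-CoA, which valine and isoleucine both yield, is carboxylated by the enzyme built from Pcca and Pccb. Pccb ran from 68.0 to 85.8 CPM in multiparous hearts (median 78.3) and from 73.7 to 91.0 CPM in virgin hearts (median 81.7), and 3 multiparous libraries lay below the lowest virgin one. The log2 fold change was -0.093 (SE 0.053, 95% interval -0.20 to 0.019, edgeR adjusted p = 0.711). Pcca had means of 84.6 ± 4.47 and 88.0 ± 8.07 CPM, and Acadsb, the dehydrogenase of the isoleucine route, 176 ± 15.4 and 185 ± 13.0 CPM (SD, n = 8 each).

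In GRCm38, Hibch (ENSMUSG00000041426.12) spans 52844929 to 52920986 on the plus strand of chromosome 1, and Hibadh (ENSMUSG00000029776.11) 52546228 to 52640389 on the minus strand of chromosome 6. Aldh6a1 (ENSMUSG00000021238.11) spans 84430717 to 84451004 on the minus strand of chromosome 12, and Pccb (ENSMUSG00000032527.13) 100982032 to 101034898 on the minus strand of chromosome 9. An unadjusted p under 0.05 was reached by 2 of the 16 branched-chain genes, Hibadh and Hibch, against the 4.09% of all genes that were lower at that level. Adjusted p-values of the list ran from 0.460 to 0.992 (edgeR).

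Both pathways moved from library to library more than between the groups. For each gene the log2 level of a library was set against that gene's mean over the 16 libraries, and these deviations were averaged over the pathway. The TCA average ran from -0.10 to 0.085 in multiparous hearts (mean -0.031 ± 0.063, SD, n = 8) and from -0.15 to 0.13 in virgin hearts (mean 0.031 ± 0.093). The branched-chain average ran from -0.12 to 0.094 (mean -0.027 ± 0.077) and from -0.17 to 0.13 (mean 0.027 ± 0.094). The groups overlapped throughout, and the virgin range enclosed the multiparous one in both pathways.

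The extremes were virgin hearts. Virgin 1 was the lowest of the 16 libraries in either pathway, and of the virgin hearts it had the lowest level of 12 of the 13 TCA genes and 13 of the 16 branched-chain genes. Virgin 2 was the highest in either pathway and virgin 6 the next. Among multiparous hearts, multiparous 3 was the highest in either pathway, with all 13 TCA genes above their own mean, and multiparous 6 the lowest. Virgin 1 is named for its low level in these same genes, so leaving it out widens the difference by construction. Without it, the medians were -0.087 for the TCA genes and -0.080 for the branched-chain genes. Then 11 of the 29 genes were lower at an unadjusted p under 0.05, as were 5.94% of all genes in that fit. With all libraries, 4.09% of all genes were. Without virgin 2 the medians were -0.049 and -0.041, and without virgin 6 -0.046 and -0.040. In either fit, 3 of the 29 genes were lower at that level. Past it in either direction were 1186 of 17978 genes without virgin 2 and 1400 of 17996 without virgin 6. None of the 29 passed the adjusted threshold in any of these fits (edgeR).

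Marker genes of heart muscle cells showed a like split. Of 15 cardiomyocyte markers, 13 were lower in multiparous hearts and 0 passed the test. At an unadjusted p under 0.05 (edgeR), 4 of the 15 were lower, where 4.09% of all genes were. So were 102 of the 1467 genes with a mean of at least 100 CPM. The median log2 fold change of the markers was -0.078. Their summed level ran from 82380 to 100430 CPM in multiparous hearts and, wider, from 76891 to 108990 CPM in the virgin ones, with virgin 1 the lowest and virgin 2 the highest library by mean log2 level. When the mean log2 level of these markers was subtracted within each library, the TCA average was 0.0059 higher in multiparous than in virgin hearts and the branched-chain average 0.015 higher. The SD within a group was then 0.038 and 0.040 for the TCA genes, and 0.068 and 0.041 for the branched-chain genes. The markers did not differ alike. The log2 fold change was largest for Ckmt2 (-0.15), Tnnc1 (-0.15), Myl3 (-0.15) and Ckm (-0.13). It was smallest for Ttn (0.00094), Pln (-0.0045) and Ryr2 (-0.0096). In bulk tissue, fewer cells of a type and less RNA per cell cannot be told apart, and what lay behind the smaller difference was not tested.

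**Figure D3:**
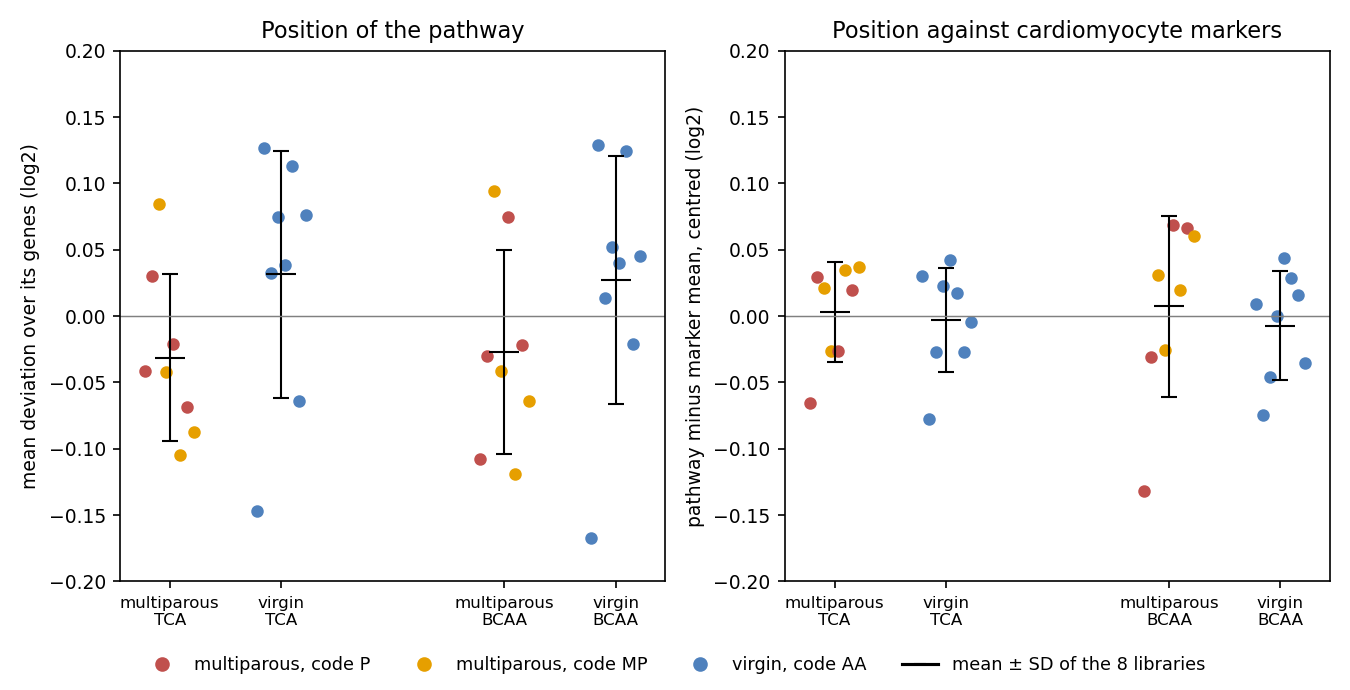
Left, mean deviation of each library over the 13 TCA or 16 branched-chain genes (log2); right, the pathway's mean log2 level minus that of 15 cardiomyocyte markers, centred on the mean of the 16 libraries. Points are libraries coloured by code and bars are mean ± SD of 8 libraries; the TCA group means lie at -0.031 and 0.031 on the left, and differ by 0.0059 on the right.

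Markers of other cells differed in direction from list to list. Of 10 fibroblast markers, 7 were higher in multiparous hearts (median log2 fold change 0.15), with sums of 1657 to 2397 CPM against 1502 to 2034 CPM. Of 10 endothelial markers 6 were higher (median 0.017, sums 1452 to 1670 against 1440 to 1683 CPM), and of 8 smooth muscle and pericyte markers 4 (median -0.11, sums 1628 to 1908 against 1296 to 1834 CPM). All 8 leukocyte markers were higher (median 0.12, sums 204 to 379 against 199 to 413 CPM). By code, the leukocyte median against virgin hearts was -0.098 for P and 0.30 for MP. Of 10 kidney markers 7 could be tested, and 6 of these were lower (median -3.39), with sums of 23.7 to 34.1 against 29.8 to 70.5 CPM. Most of the multiparous sum was Cyp4b1, the tested marker that was not lower (means 26.0 and 24.3 CPM). The next most abundant, Kap, had 0.772 and 8.40 CPM. Of 8 liver markers 5 could be tested, and 4 of these were higher (median 2.71). They summed to between 3.53 and 314 CPM in multiparous hearts, highest in the P-coded replicates 2, 7 and 1 (from 68.8 CPM up), and to between 2.59 and 228 CPM in virgin hearts, where virgin 8 was the highest, with Ttr at 220 CPM, and the next was at 21.9 CPM. Of 8 adipocyte markers 3 could be tested, and all 3 were higher (median 0.57), with sums of 12.7 to 18.9 against 9.47 to 23.7 CPM. Most of these sums was Cidea (means 13.1 and 12.7 CPM). None of these marker genes was at 0 in all libraries, none passed the adjusted threshold between multiparous and virgin hearts, and their part in the result was not tested. The 16 libraries held between 34560606 and 58890976 reads assigned to genes, except virgin 8 with 228325238, and thinning virgin 8 to the median of the others left 13 and 15 genes lower.

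The P and MP codes were compared with the virgin libraries in one edgeR fit over 18905 genes, and both comparisons use the same virgin libraries. Among P-coded hearts, 10 of 13 TCA genes (median log2 fold change -0.068) and 13 of 16 branched-chain genes (median -0.052) were lower than in virgin hearts, where 52.7% of all genes were lower. Among MP-coded hearts, 11 of 13 (median -0.082) and 13 of 16 (median -0.057) were lower, where 51.2% of all genes were lower. None of the 29 genes passed the adjusted threshold in either, while 0.878% of all genes did for P and 0.00529% for MP. Of the marker genes tested in that fit, 6 of 8 kidney markers were lower and 7 of 8 liver markers higher past that threshold in P-coded hearts (medians -5.75 and 3.94), and 0 of either list passed in MP-coded hearts (medians -2.50 and 0.27) or between the codes. No cardiomyocyte marker passed in any of the 3 contrasts, and the part of the kidney and liver transcripts in the values of the P-coded hearts was not tested.

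Between the codes, the medians of MP minus P were 0.0036 for the TCA genes and 0.012 for the branched-chain genes, and 0 of the 29 genes passed, where 0.0106% of all genes did (edgeR). At an unadjusted p under 0.05, 1 of the 29 was lower in MP-coded hearts, where 4.4% of all genes were. This was Pccb, with 72.0 CPM in MP-coded and 82.4 CPM in P-coded hearts, against 82.4 CPM in virgin hearts (edgeR adjusted p = 0.312). Ogdh had 3065 CPM in MP-coded and 3401 CPM in P-coded hearts, and Ivd 359 and 401 CPM. Idh3a was ordered the other way, with 568 CPM in MP-coded and 510 CPM in P-coded hearts, and so was Aldh6a1 with 251 and 228 CPM.

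Ratios of 2 genes within a library do not depend on the scaling between libraries, and 12 were compared by an exact two-sided permutation test over all assignments of the libraries. None passed after adjustment over the 12. The smallest p belonged to Sucla2 over Suclg2, the ATP-forming over the GTP-forming beta subunit of succinyl-CoA synthetase. This log2 ratio ran from 1.06 to 1.24 in multiparous hearts and from 1.14 to 1.27 in virgin hearts, with 7 of 8 multiparous libraries below the virgin median. The difference was -0.071 (means 1.14 ± 0.070 and 1.21 ± 0.046, n = 8 each, SD), with an exact permutation p = 0.0351 and an adjusted p = 0.421.

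Within the isocitrate dehydrogenase, Idh3a over Idh3b was 0.097 higher in multiparous hearts (0.24 ± 0.13 against 0.15 ± 0.092, SD, n = 8 each), with 7 of 8 libraries above the virgin median (exact permutation p = 0.108, adjusted p = 0.621). Against the virgin hearts, this difference was 0.19 for the MP-coded hearts alone (exact permutation adjusted p = 0.0485, n = 4 and 8) and -0.00073 for the P-coded hearts alone. The kinase over the phosphatase of the branched-chain dehydrogenase, Bckdk over Ppm1k, differed by -0.074 (-1.40 ± 0.12 against -1.33 ± 0.20, exact permutation p = 0.387, adjusted p = 0.621, n = 8 each). In the malate-aspartate shuttle, cytosolic over mitochondrial enzyme was 0.053 higher for Mdh1 over Mdh2 and 0.059 higher for Got1 over Got2 (exact permutation adjusted p = 0.621 for both, n = 8 each). The subunit ratios of methylcrotonyl-CoA carboxylase (Mccc1 over Mccc2, -0.044) and propionyl-CoA carboxylase (Pcca over Pccb, 0.042) differed by less than 1 SD.

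**Figure D4:**
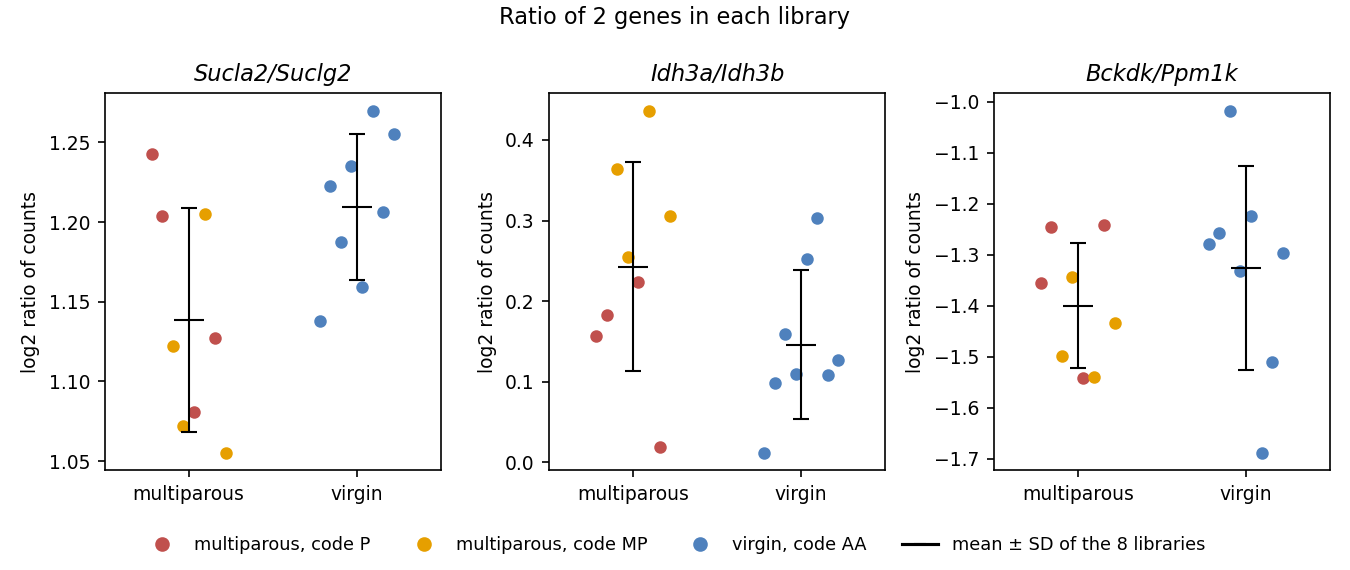
Log2 ratio of the counts of 2 genes in each library (vertical axes do not start at 0), ordered from replicate 1 to 8 within a group and coloured by library code, with mean ± SD of 8 libraries. Multiparous points lie mostly below the virgin mean for Sucla2 over Suclg2 (1.21) and above it for Idh3a over Idh3b (0.15), and the groups overlap in each panel.

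Other genes of the pathways, on lists also chosen with earlier results of these data known, had like medians. Of 23 further genes of the cycle, its shuttles and its filling reactions, 19 were lower (median -0.061) and 0 passed the test (edgeR). The smallest p-values belonged to Slc25a13, a mitochondrial aspartate-glutamate carrier, with 132 ± 5.03 against 146 ± 9.78 CPM (SD, n = 8 each, edgeR adjusted p = 0.262), Ogdhl, a relative of Ogdh, with 145 ± 18.3 against 166 ± 24.7 CPM (adjusted p = 0.620), and the succinate dehydrogenase subunit Sdhb, with 435 ± 23.3 against 464 ± 30.9 CPM (adjusted p = 0.632). None of these 3 passed. Dld, shared with the branched-chain complex, had 333 ± 33.2 against 361 ± 28.9 CPM (SD, n = 8 each).

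Of 24 further genes of branched-chain transport, breakdown and cofactor supply, 17 were lower (median -0.065) and 0 passed (edgeR). The smallest p-values belonged to the enoyl-CoA hydratase Echs1, with 200.1 ± 6.76 against 214 ± 14.5 CPM (adjusted p = 0.523), the lipoate synthase Lias, with 33.9 ± 2.58 against 36.6 ± 1.63 CPM (adjusted p = 0.543), and the amino acid carrier subunit Slc7a5, with 7.88 ± 1.03 against 8.82 ± 1.17 CPM (adjusted p = 0.692, SD, n = 8 each). None of the 3 passed. In P-coded hearts alone, Lias had 31.9 ± 0.94 CPM (SD, n = 4) and passed against the virgin hearts (log2 fold change -0.20, edgeR adjusted p = 0.0484). It was the 1 gene of these 24 to do so, where 0.878% of all genes did. In MP-coded hearts it had 36.0 ± 1.91 CPM (log2 fold change -0.021, edgeR adjusted p = 0.934), and the difference between the codes did not pass (edgeR adjusted p = 0.227).

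Regulators of mitochondrial genes, which were transcription factors, coactivators and the deacetylase Sirt3, were not mostly lower. Of these, 7 of 10 had a higher mean in multiparous hearts, the median log2 fold change was 0.020, and 0 passed (edgeR adjusted p from 0.817 to 0.986). The coactivators Ppargc1a and Ppargc1b had log2 fold changes of 0.022 and 0.11, and the nuclear receptors Esrra, Esrrg and Ppara -0.0099, 0.024 and 0.055. Nrf1 and Gabpa, which bind promoters of respiratory genes, had 0.017 and 0.037. Klf15, a factor that acts on amino acid breakdown, had 0.017. The mitochondrial DNA factor Tfam and the deacetylase Sirt3 had -0.054 and -0.050. Against virgin hearts, Klf15 had -0.17 in P-coded and 0.18 in MP-coded hearts, and Ppargc1b 0.26 and -0.055. Neither gene passed between the codes (edgeR adjusted p = 0.285 and 0.345).

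Since the members of each pathway had like directions, their promoters were searched on both strands for the motifs of 3 of these factors, in the 250 bases before the RefSeq start (GRCm38.p6), where 27 of the 29 genes had an entry and Dbt and Idh3a had none. The estrogen-related receptor motif TNAAGGTCA was in 0 of 12 TCA and 0 of 15 branched-chain genes, and in 1.30% of 27025 genes. The NRF1 motif GCGCANGCG was in 2 TCA genes (Ogdh, Sucla2) and 2 branched-chain genes (Hibadh, Pccb), and in 5.86% of all genes. The ETS family motif CCGGAAG, bound by Gabpa, was in 1 of either list (Idh3g and Auh), and in 7.83% of all genes. No match overlapped another, and a match describes letters, not binding. Of the 36 promoters of these genes in the table, 29 have the bases after their start in the first part of a GENCODE transcript of the gene, and the 2 Ogdh promoters with a match are not among them.
The windows that hold a match outside annotated exons are printed 5′ to 3′ on the gene's strand, with the match in capitals, to show where these letters lie.
Pccb, chr9:101034899-101035013, minus strand, NRF1 motif at 35 and 69 bases before the start: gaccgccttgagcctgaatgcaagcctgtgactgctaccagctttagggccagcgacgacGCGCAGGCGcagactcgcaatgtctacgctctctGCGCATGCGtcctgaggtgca
Ogdh, chr11:6292514-6292578, plus strand, between exons of the gene, NRF1 motif at 15 and 36 bases before 2 annotated starts: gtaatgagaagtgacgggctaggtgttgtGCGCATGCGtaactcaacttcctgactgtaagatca
Idh3g, chrX:73786908-73787027, minus strand, ETS motif at 104 bases before the start: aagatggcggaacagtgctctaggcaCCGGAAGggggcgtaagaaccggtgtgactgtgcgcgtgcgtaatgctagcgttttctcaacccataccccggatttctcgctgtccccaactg
Auh, chr13:52929808-52929927, minus strand, ETS motif on the opposite strand at 240 bases before the start: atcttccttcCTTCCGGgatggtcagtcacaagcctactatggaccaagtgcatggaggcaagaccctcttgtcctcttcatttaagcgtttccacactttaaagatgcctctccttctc
The genes with a printed NRF1 match had log2 fold changes of -0.093 (Pccb) and -0.060 (Ogdh), and those with a printed ETS match -0.0087 (Idh3g) and -0.051 (Auh). The other 2 genes with an NRF1 match, not printed because it overlaps an annotated exon, had -0.13 (Sucla2) and -0.12 (Hibadh). A part of these motifs in the differences was not tested.

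The pathways differed in abundance. Per kilobase of exon, over all 16 libraries, TCA genes ran from 49.3 CPM (Suclg1) to 605 CPM (Ogdh), with Idh2 (598 CPM per kilobase) and Mdh1 (426 CPM per kilobase) next to Ogdh. Branched-chain genes ran from 7.64 CPM per kilobase (Auh) to 88.5 (Bckdha), with Ivd at 70.6 and Aldh6a1 at 43.1. Only Bckdha and Ivd reached above the lowest TCA gene. Exon length here counts every base annotated as exon in any transcript of a gene, from 1805 bases (Bckdhb) to 10952 (Mccc1). The order of the genes therefore depends on the annotation as well as on the reads. Inside the branched-chain dehydrogenase, Bckdha stood at 88.5 CPM per kilobase, Dbt at 21.7, Bckdhb at 21.6 and the kinase Bckdk at 21.4, with the phosphatase Ppm1k at 33.9. The counts behind these levels were at least 1335 reads for any branched-chain gene in a library, and at least 7715 for any TCA gene.

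Some counts may hold reads of a neighbour, since the strand setting of the counting is not given in the sources used here. Bckdha shares 1171 of its 1899 exonic bases with B3gnt8 on the opposite strand, which had a mean of 126 counts against 9560. Aldh6a1 shares 1078 of 5784 bases with Bbof1, and Bcat2 622 of 3900 with an antisense gene. Pcca shares 241 of 5210 bases with Ggact on the opposite strand, which had a mean of 616 counts against 4904. Idh3b shares 5 bases with Nop56. Got2, Hibadh, Mccc1 and Mdh1 also share exonic bases with other genes.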

How the data were processed

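RNA from the left ventricular mid section of 8 multiparous and 8 virgin mice was made into stranded total RNA libraries after removal of ribosomal RNA, per the labels' protocols. The submitters' processing notes name STAR 2.7.11b, HTSeq 0.11.1 and SAMtools 1.19.2, trimming by Trim Galore 0.6.10 with cutadapt 4.8, and the build GRCm38.p6. The authors deposited raw counts per gene, 1 table per library. Reads assigned to no gene, 26.5% to 33.1% of a library, stayed out of totals and tests.

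The test of the counts was edgeR's quasi-likelihood F-test between the groups (version 4.0.16, R 4.3.3), with TMM factors, filterByExpr and Benjamini-Hochberg adjustment over 17813 genes at 0.05. CPM values are scaled by TMM. SE comes from the F statistic, and intervals are at 95%. Ratios used counts plus 0.5. Annotation was GENCODE M21, which held 99.5% of the identifiers, matched without version. Idh3b and Mdh1 have another version there, which gives their positions, exon lengths and overlaps. Alternatives were other factors, filters, DESeq2 1.42.0, limma voom 3.58.1, a replicate block, single codes and leaving out each library.

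The genes and lists were chosen with earlier results of these data known. All 29 genes are accounted for. In each pathway, genes with an unadjusted p under 0.05 get full values, or the 4 with the smallest p if fewer, together with genes whose groups do not overlap or that go against the pathway median. Of other pathway genes, those called are named, or the 3 with the smallest p. Levels relative to cardiomyocyte markers were added after the data were seen.

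No 2 libraries of a group agreed within sampling noise (lowest chi-square per degree of freedom 9.85). Beyond the number of mice, no label ties a library to 1 animal, so the spread behind the p-values is that of these libraries and may be technical. For the 29 genes, precision rests on the spread between libraries more than on counting, as each had 1335 reads or more in a library. Some other genes named here, such as Kap, had far fewer.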

Additional observations from a re-analysis of the deposited data

Results flagged for a closer look

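In 102 sets of 8 values (each gene, pathway average, ratio and marker sum in a group), 9 held a library whose gap to its nearest neighbour took up more of the group's range than Dixon's 95% limit allows, where chance flags about 1 set in 20. Virgin 1 was the lowest virgin library for Ivd (323 CPM, next 385), Hibch (62.3 CPM, next 72.4) and Pcca (70.3 CPM, next 84.3), all of them branched-chain genes. The same library had the lowest smooth muscle and pericyte marker sum (1296 CPM, next 1612) and the highest leukocyte marker sum (413 CPM, next 287). Multiparous 3 was the highest multiparous library for Dlst (696 CPM, next 628), and multiparous 5 for Mccc1 (117 CPM, next 107.2). Virgin 6 had the highest adipocyte marker sum of the virgin hearts (23.7 CPM, next 14.9), and virgin 8 the highest liver marker sum (228 CPM, next 21.9).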

How the results depend on the processing

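None of the 29 genes passed the adjusted threshold under any of the 28 alternatives, 16 of which leave out 1 library each. The smallest adjusted p of any was 0.126, without virgin 1 (edgeR). Of 812 values of single genes, 773 kept their direction. TCA genes lower numbered 10 to 13 and branched-chain genes 13 to 15 when 1 library was left out, with medians of -0.087 to -0.046 and -0.080 to -0.040. The cause of the reversals below was not tested.

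Over all genes, the number called, 2, became 0 without factors, 0 with the robust fit, 56 with no filter on low counts, 248 with DESeq2, 97 for P-coded and 0 for MP-coded hearts alone, and 0 to 55 with 1 library left out (55 without virgin 7). With the replicate block 33 were called, none of them among the 29. The labels give no pairing by number, and the correlations cannot exclude one. The correlation of same-numbered deviations passed 0.1 in 1 of 8 pairs, number 5 (0.29), and only number 5 correlated best with its own. Between the codes, 142 genes were called by DESeq2 against 2, none among the 29.

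Without factors, Idh3a (0.015), Idh3g (0.026), Idh2 (0.00058), Mdh1 (0.022), Bcat2 (0.024), Bckdha (0.029), Bckdk (0.0073) and Mccc2 (0.017) were higher in multiparous hearts (log2). P-coded hearts alone gave Cs 0.0032, Idh2 0.017, Ogdh 0.0091, Bckdha 0.045 and Ivd 0.010. MP-coded hearts alone gave Idh3a 0.057, Mdh1 0.0026, Bcat2 0.0045 and Mccc2 0.017. With 1 library left out, the range was -0.057 to 0.011 for Idh3a, -0.022 to 0.0032 for Idh3g, -0.052 to 0.011 for Idh2, -0.043 to 0.0022 for Mdh1, -0.040 to 0.0093 for Bcat2, -0.048 to 0.022 for Bckdha and -0.051 to 0.0019 for Mccc2.

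Of the ratios, P-coded hearts alone gave -0.053 for Pcca/Pccb, -0.00073 for Idh3a/Idh3b, 0.12 for Idh2/Idh3a and -0.072 for Got1/Got2. MP-coded hearts alone gave -0.0032 for Bckdha/Bckdhb, 0.022 for Dbt/Bckdha, 0.066 for Idh3a/Idh3g and -0.099 for Ogdh/Dlst, and 1 ratio passed, Idh3a/Idh3b. With 1 library left out, Ogdh/Dlst ranged from -0.010 to 0.033, Idh2/Idh3a from -0.057 to 0.044 and Idh3a/Idh3g from -0.035 to 0.024, and 0 ratios passed. Protein features were not run, as no protein table was used here.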
